A study of Bos taurus with 30 samples.

Results

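The mitochondrial ribosomal proteins were followed across lymphocytes of prednisolone-treated and control cows. The genes were taken by name: those of the named array features whose symbol, in the platform annotation or after updating through the RefSeq accession, starts with MRPL or MRPS and a number. The rule found 21 genes on 44 features, among 3269 named genes and 44407 features of the array. Of these, 13 are genes of the large subunit by symbol and 8 of the small subunit. MRPL57, named MRP63 in the platform annotation, entered under its updated symbol. A filter on dim genes left 20 of the 21 for testing, and MRPS7 was the one left out.

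The samples came from 15 cows, 8 given prednisolone, a synthetic glucocorticoid, by mouth at 30 mg per head each day for 35 days, and 7 labelled as controls. Lymphocytes of each animal were sampled at T1 and T2 and hybridised singly to one-colour Agilent bovine arrays, so the 4 groups were 8 prednisolone arrays and 7 control arrays at T2, and 8 prednisolone arrays and 7 control arrays at T1. The samples were collected at a slaughterhouse. The labels place neither T1 nor T2 within the dosing period, give no breed or age, and carry the dosing text on control samples too, so that the treatment tag alone separates the groups.

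Mitochondria keep a ribosome of their own, which translates the few proteins encoded by mitochondrial DNA, all of them subunits of the respiratory chain and ATP synthase. Its proteins are encoded in the nucleus, made in the cytosol and imported, and they assemble on mitochondrial ribosomal RNA into a large and a small subunit. Some have a counterpart in the bacterial ribosome and others exist only in mitochondria. In lymphocytes mitochondrial translation is known to be needed for activated T cells to sustain growth and cytokine production. Of the 20 genes tested, 14 encode proteins with a bacterial counterpart and 6 do not. MRPS36 carries a ribosomal name, but later work assigned its product to the 2-oxoglutarate dehydrogenase complex.

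Levels are given as log2 scaled intensity of the probe and differences as log2 differences between groups. Levels of different genes are not set against each other, since probes differ in brightness. Features measured on every array had medians of 996.7 to 1040 intensity units per array, and the number of arrays limits the precision. The 20 genes lay between percentiles 50.9 and 87.9 of all named genes by mean level. T cell markers were present: of 11 listed 8 were named on the array and 7 passed the filter, among them CD3D, CD3E and CD3G. Of 9 B cell markers only 2 were named on the array, CD79A and CR2, and both passed. Of 8 monocyte markers 3 were named and 2 passed, CD14 and ITGAM. At T2 their summed log2 level lay at 11.03 to 12.93 in prednisolone and 12.04 to 13.78 in control arrays. At T1 it lay at 13.34 to 15.62 in prednisolone and 12.07 to 13.41 in control arrays. CD14 was lower in prednisolone than in control animals at T2 (-1.11, SE 0.338, limma adjusted p = 0.0328). At T1 CD14 was higher in prednisolone animals without passing (1.44, SE 0.319, adjusted p = 0.0556). Within prednisolone animals CD14 was lower at T2 than at T1 (-2.33, SE 0.369, adjusted p = 1.59e-04), and its interaction passed (-2.55, SE 0.482, adjusted p = 8.15e-04). ITGAM was higher at T2 than at T1 in prednisolone animals (0.46, SE 0.159, adjusted p = 0.0344). Of the T cell markers CD2 was higher in prednisolone animals at T2 (0.32, SE 0.0997, adjusted p = 0.0367), and CD2, CD3G, CD6 and CD8A were higher at T2 than at T1 within them, by 0.34 to 0.81. The summed T cell level lay at 15.92 to 16.63 in prednisolone and 15.96 to 16.35 in control arrays at T2, and at 15.77 to 16.28 in prednisolone and 15.31 to 16.36 in control arrays at T1. Of 9 natural killer markers 7 were named and all 7 passed the filter. NCR1 was higher in prednisolone animals at T2 (0.70, SE 0.225, adjusted p = 0.0408). FCGR3A (0.39) and KLRK1 (0.30) were higher without passing. KLRD1 (-0.55), NKG7 (-0.25), GZMB (-0.14) and PRF1 (-0.12) were lower without passing. The median T2 difference of these 7 markers was -0.12. Their summed level lay at 13.95 to 14.70 in prednisolone and 13.85 to 14.87 in control arrays at T2, and at 13.56 to 15.25 in prednisolone and 14.04 to 14.96 in control arrays at T1. CR2 of the B cell markers was higher at T2 than at T1 in prednisolone animals (0.78, SE 0.21, adjusted p = 0.00779). CD79A differed by -0.07 there without passing (SE 0.206, adjusted p = 0.817). Of 6 erythroid markers 4 were named and 3 passed the filter, HBB among them. Of 9 neutrophil markers 3 were named and 2 passed, and of 5 platelet markers 1 was named and passed. None of these erythroid, neutrophil and platelet markers differed in any comparison by the adjusted p. The part of these shifts in the results below was not tested. On the first principal component of 2181 genes, which held 21.9% of the variance, prednisolone animals 28 and 32 stood at 21.9 and 22.2 at T1, apart from the other prednisolone animals at 3.3 to 9.1, so calls of mitochondrial ribosomal protein genes that end without them are given both ways. In such bulk samples fewer cells of a type and less RNA per cell cannot be told apart.

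At T2 prednisolone and control animals differed in 9 of the 20 mitochondrial ribosomal protein genes, of which 3 rose and 6 fell. That is 45% of the genes tested, against 18.6% of all 2403 genes in the same comparison. Rises, here meaning higher in prednisolone than in control animals, made up 11% of all genes, and falls, meaning lower, 7.57%. Blocked by animal, 9 of the 20 passed, against 15.5% of all genes. The small subunit held 5 of the 9 (of 7 tested by symbol, MRPS36 counted among the 7) and the large subunit 4 (of 13 tested). No change reached 2-fold. For each of the 9 genes all 8 prednisolone animals shifted the same way from the control mean, which selection by this comparison favours. The same held for MRPL2 and MRPS34, which did not pass. The median difference of the 20 genes was -0.051, against 0.039 over all genes. By symbol the median was -0.049 in the large subunit (2 higher and 2 lower passed) and -0.268 in the small subunit (1 higher and 4 lower passed). The subunits were not tested against each other. Without animals 28 and 32 the median of the 20 genes was -0.126, against 0.042 over all genes. With all animals the median size of a difference regardless of sign was 0.219, against 0.17 over all genes.

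The largest rise at T2 was that of MRPS17, the counterpart of bacterial S17 in the small subunit. Its lowest, median and highest levels were 9.91, 10.48 and 10.67 in prednisolone animals, against 9.51, 9.71 and 10.35 in control animals. The 2 lowest prednisolone arrays lay within the control range, below its highest array, and the rest lay above it. MRPS17 rose by 0.65 (SE 0.136, 1.57-fold, limma adjusted p = 0.00413), and at T1 it had averaged 9.84 ± 0.14 in prednisolone (SD, n = 8) and 9.86 ± 0.34 in control animals (SD, n = 7).

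MRPL13, the large-subunit counterpart of bacterial L13, had 11.52, 11.79 and 11.82 (lowest, median, highest) in prednisolone animals at T2, against 10.99, 11.23 and 11.64 in control animals. The prednisolone animals were close together, and only the highest control array reached into their range. The rise was 0.48 (SE 0.0907, 1.39-fold, adjusted p = 0.00236). MRPL18, the counterpart of L18, which in bacteria binds 5S ribosomal RNA, rose by 0.33 (SE 0.0785, adjusted p = 0.00969). Its levels were 11.54, 11.71 and 11.83 in prednisolone animals, against 11.17, 11.34 and 11.60 in control animals, with a narrow overlap. MRPS34, a mitochondria-specific protein of the small subunit, stood 0.22 higher without passing (SE 0.0756, adjusted p = 0.0587).

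**Figure D1:**
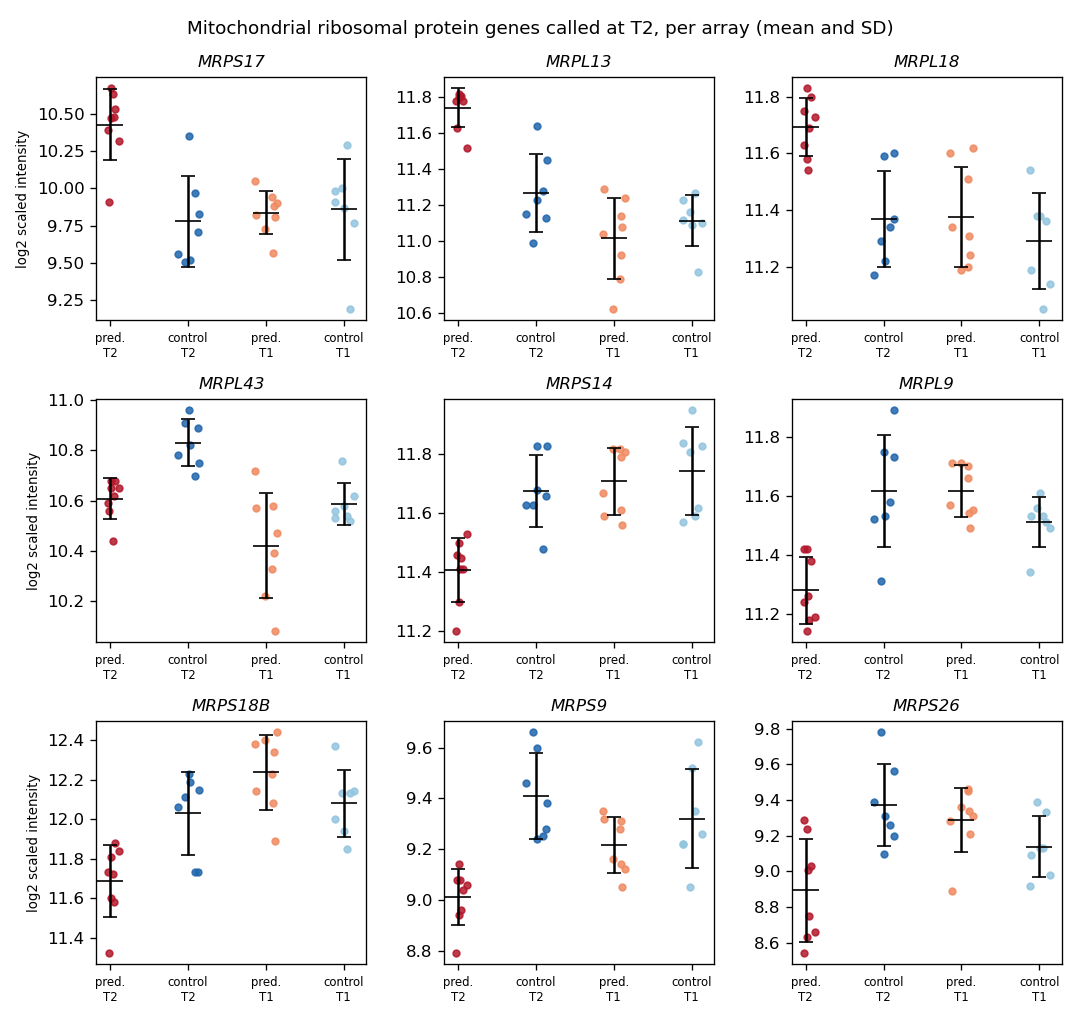
Levels per array of the 9 genes called at T2, in log2 scaled intensity, for prednisolone and control animals at T2 and then at T1; points are arrays, bars the mean and SD (n = 8 prednisolone, n = 7 control), and each panel has its own axis. The T2 prednisolone group stands above the other groups for MRPS17, MRPL13 and MRPL18 and below the T2 control group for the other 6 genes.

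Among the falls at T2, MRPS9 and MRPL43 were the 2 genes in which the groups did not overlap; 4.08% of all genes had no overlap. MRPS9, the counterpart of bacterial S9, had 8.79, 9.05 and 9.14 in prednisolone animals, against 9.24, 9.38 and 9.66 in control animals. It fell by 0.40 (log2, SE 0.0797, adjusted p = 0.00324). MRPL43, a large-subunit protein without a bacterial counterpart, had 10.44, 10.63 and 10.68 in prednisolone animals, against 10.70, 10.82 and 10.96 in control animals. The gap between the groups was small, as was the difference of -0.22 (SE 0.0595, adjusted p = 0.0183). At T1 MRPL43 had already differed by -0.17 without passing (SE 0.0928, adjusted p = 0.311).

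The largest fall at T2 was that of MRPS26, a mitochondria-specific protein of the small subunit. It had 8.54, 8.88 and 9.29 in prednisolone animals, against 9.10, 9.31 and 9.78 in control animals, a difference of -0.48 (SE 0.132, adjusted p = 0.0206). Most prednisolone animals lay below every control animal, and the ranges overlapped at the lower control values. MRPS18B, one of the mammalian relatives of bacterial S18, fell by 0.34 (SE 0.102, adjusted p = 0.0298), with 11.32, 11.73 and 11.88 in prednisolone animals, against 11.73, 12.11 and 12.23 in control animals. Without animals 28 and 32 MRPS18B no longer passed (-0.35, adjusted p = 0.0559), while the other 8 genes did.

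MRPL9, the counterpart of L9, fell by 0.34 (SE 0.0844, adjusted p = 0.0124), with 11.14, 11.25 and 11.42 in prednisolone animals, against 11.31, 11.58 and 11.89 in control animals. MRPS14, the counterpart of S14, fell by 0.27 (SE 0.0698, adjusted p = 0.015), with 11.20, 11.43 and 11.53 in prednisolone animals, against 11.48, 11.66 and 11.83 in control animals. In both genes only the lowest control animal lay inside the prednisolone range. MRPL2, the counterpart of L2, a protein next to the peptidyl transferase centre, differed by -0.30 without passing (SE 0.111, adjusted p = 0.0702). Its 2 spots lay 0.251 apart and the brighter one was used alone. With both spots averaged, MRPL2 fell by 0.35 (SE 0.114, adjusted p = 0.0463).

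The remaining genes had T2 differences between -0.14 for MRPL20 and 0.09 for MRPS36, all above the threshold. For MRPL49, a mitochondria-specific large-subunit protein, the difference was 0.00 with a 95% interval of -0.22 to 0.22, and for MRPL30 it was -0.04 with an interval of -0.25 to 0.17. MRPL12, the counterpart of the bacterial stalk protein L7/L12, varied most among animals, and its interval of -0.43 to 0.56 leaves a wide range of sizes.

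At T1 none of the 20 genes passed in limma, where 0.333% of all genes did. Before adjustment 1 of the 20 had p under 0.05, against 21.7% of all genes. That gene was MRPL11, the counterpart of L11, at 12.09, 12.29 and 12.43 in prednisolone animals, against 11.77, 12.18 and 12.29 in control animals, a difference of 0.21 (SE 0.097, adjusted p = 0.23). The other large positive differences were those of MRPS18B (0.16, SE 0.10) and MRPS26 (0.15, SE 0.0982), genes that fell at T2. The largest negative ones were those of MRPL32 (-0.25, SE 0.122), MRPS36 (-0.25, SE 0.149) and MRPL16, the counterpart of L16 (-0.19, SE 0.108). The groups overlapped in every one of the 20 genes. The median difference was 0.016 for the 20 genes and 0.032 for all genes, and without animals 28 and 32 it was -0.018 for the 20 genes and 0.03 for all genes. A fit of both times blocked by animal also passed none of the 20, although 9.61% of all genes passed in it.

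**Figure D2:**
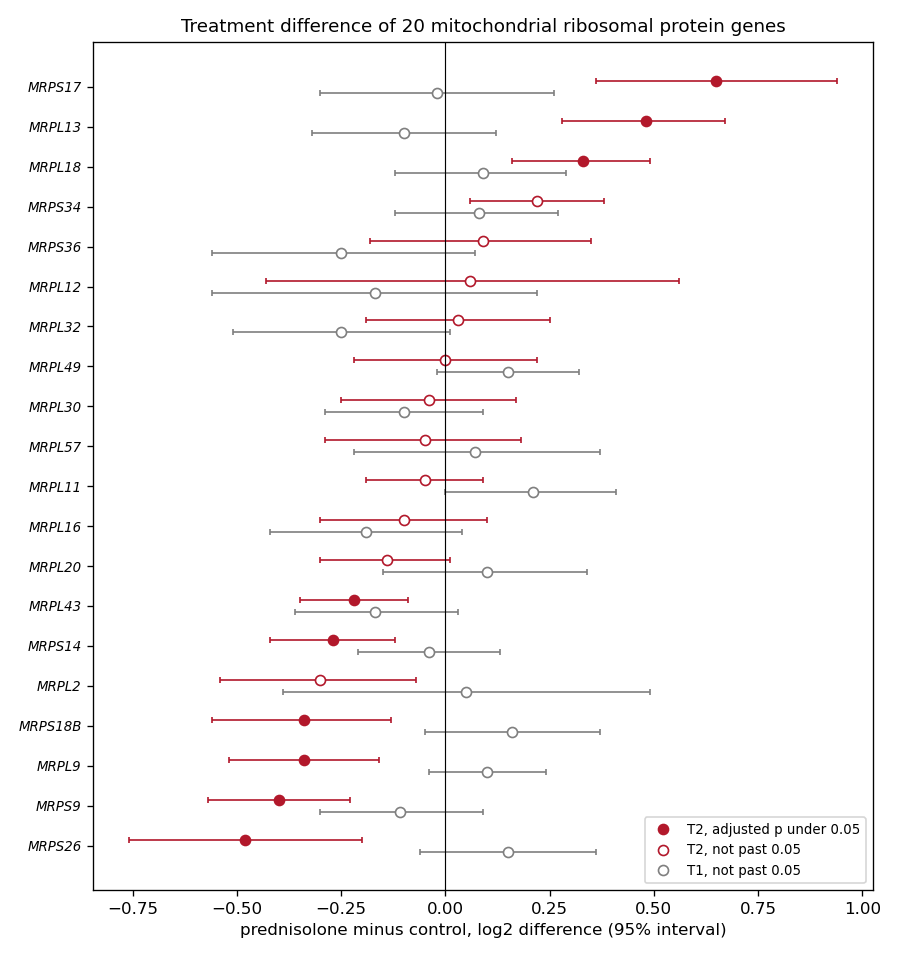
Prednisolone minus control differences (log2) of the 20 genes tested, at T2 in red and at T1 in grey, with 95% intervals from limma; filled points passed an adjusted p of 0.05. The T2 values run from 0.65 for MRPS17 to -0.48 for MRPS26, and no T1 value passed.

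Within the prednisolone animals, 12 of the 20 genes changed between the samplings, 6 higher and 6 lower at T2. That is 60%, where 38% of all genes passed, 21.9% higher and 16.1% lower. All 7 small-subunit genes tested, counted by symbol and so with MRPS36, were among the 12, with 5 of the 13 large-subunit genes. The comparison shares the T2 prednisolone arrays with the treatment comparison at T2, so the values of one are not independent of the other. With the animal as a replicate block, which pairs the 2 samplings, 15 of the 20 passed, where 42.6% of all genes did. The genes added by the block were MRPL12 (0.48, adjusted p = 0.0144), MRPL2 (-0.34, adjusted p = 0.0441) and MRPL57 (-0.24, adjusted p = 0.0109).

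MRPL13 had the largest rise over time. Its levels in prednisolone animals were 11.52, 11.79 and 11.82 at T2, against 10.62, 11.06 and 11.29 at T1, so that no T2 array overlapped a T1 array. The difference was 0.73 (SE 0.0919, 1.66-fold, adjusted p = 2.29e-05), and the 8 animals' own changes lay between 0.49 and 1.01. MRPS17 rose by 0.59 (SE 0.0999, adjusted p = 2.71e-04), with changes per animal of 0.34 to 0.86. MRPS36 rose by 0.42 (SE 0.141, adjusted p = 0.0273), MRPS34 by 0.36 (SE 0.0801, adjusted p = 0.00214), and MRPL18 by 0.32 (SE 0.0786, adjusted p = 0.00471). Each of these rose in 8 of 8 animals but MRPS34, which did in 7. Selection by this comparison favours changes in one direction. MRPL57, which did not pass, fell in 8 of 8.

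MRPL32, whose product is known in yeast and mouse to be trimmed by a mitochondrial protease before it joins the ribosome, rose by 0.33 (SE 0.124, adjusted p = 0.0436) in 7 of 8 animals. It was the least stable of the 12 calls. The values as deposited (adjusted p = 0.0757), quantile normalization (adjusted p = 0.0589), no filter on dim genes (adjusted p = 0.0556) and leaving out animals 28 and 32 (adjusted p = 0.197) each ended it.

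The largest fall over time in prednisolone animals was that of MRPS18B. Its levels were 11.32, 11.73 and 11.88 at T2, against 11.89, 12.29 and 12.44 at T1, with no overlap. The difference was -0.55 (SE 0.0953, adjusted p = 3.14e-04), and all 8 animals fell, with changes of -0.86 to -0.16. MRPL9 (-0.33, SE 0.0618, adjusted p = 5.41e-04) and MRPS14 (-0.30, SE 0.0652, adjusted p = 0.00196) also had no overlap, so with MRPL13 and MRPS18B there were 4 such genes of 20, and 9.49% of all genes had none. In MRPS14 the changes of the animals were close together, between -0.36 and -0.20.

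MRPS26 fell by 0.39 over time (SE 0.118, adjusted p = 0.0145), MRPL20, the counterpart of L20, by 0.28 (SE 0.0698, adjusted p = 0.00513) and MRPS9 by 0.20 (SE 0.0655, adjusted p = 0.0223), each in 8 of 8 animals. The calls of MRPS26 (adjusted p = 0.0597) and MRPS9 (adjusted p = 0.102) were lost without animals 28 and 32. For MRPL20 the spots of the pair correlated at 0.398 over the arrays, the lowest value of the 19 genes with 1 pair, whose median was 0.921.

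**Figure D3:**
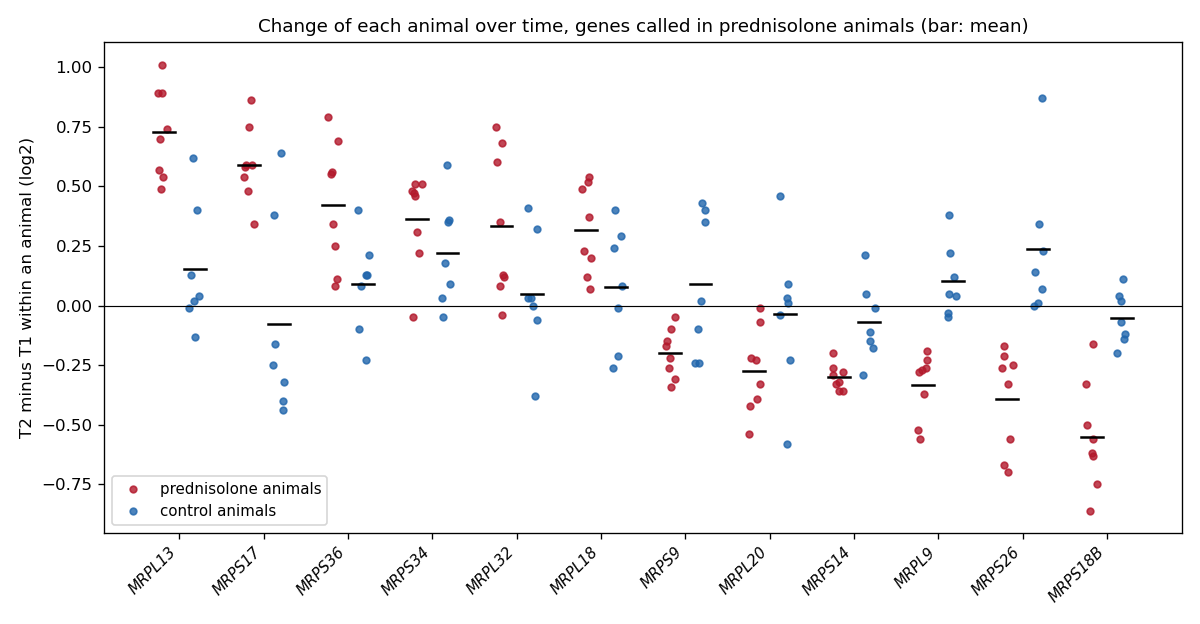
T2 minus T1 change of each animal (log2) for the 12 genes called in prednisolone animals, with prednisolone animals in red on the left and control animals in blue on the right of each pair; bars are means. The prednisolone animals lie on one side of 0 for 10 of the 12 genes, which selection by this comparison favours. The control animals lie around 0 for most.

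In the 7 control animals none of the 20 genes passed between T2 and T1, and 0% of the 2403 genes did in limma. Before adjustment 4 of the 20 had p under 0.05, against 10.1% of all genes. Blocking by animal passed none of the 20 either, and 0.125% of all genes. MRPL49 differed by 0.31 (SE 0.0948, adjusted p = 0.305) and MRPL43 by 0.24 (SE 0.0697, adjusted p = 0.298), in 7 of 7 animals each. MRPL43 had 10.70, 10.82 and 10.96 at T2, against 10.52, 10.56 and 10.76 at T1. In prednisolone animals MRPL43 averaged 10.61 ± 0.08 at T2 and 10.42 ± 0.21 at T1 (SD, n = 8 each), a difference of 0.19, and its interaction was -0.05 (SE 0.104). MRPS34, which rose over time in prednisolone animals, differed by 0.22 in control animals (SE 0.0866, adjusted p = 0.406), in 6 of 7 animals. Its interaction was 0.14 (SE 0.113, adjusted p = 0.42). In control animals MRPL12 differed by 0.25 (SE 0.195), MRPL16 by -0.25 (SE 0.112), MRPL57 by -0.11 (SE 0.123) and MRPS17 by -0.08 (SE 0.165).

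Whether the change over time differed between prednisolone and control animals was tested by the interaction, in which 5 of the 20 genes passed, 2 positive and 3 negative. This share of 25% compares with 18.1% of all genes, made up of 9.36% positive and 8.78% negative, so as a count it lay near the background. MRPS17 changed by 0.59 on average in prednisolone and by -0.08 in control animals (interaction 0.67, SE 0.19, adjusted p = 0.015). MRPL13 changed by 0.73 in prednisolone and by 0.15 in control animals (interaction 0.58, SE 0.136, adjusted p = 0.00444). All 8 prednisolone animals lay above the mean control change in both genes, which were selected by this same test.

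The negative interactions were those of MRPS26, MRPS18B and MRPL9. MRPS26 changed by -0.39 in prednisolone and by 0.24 in control animals (interaction -0.63, SE 0.164, adjusted p = 0.00952), and MRPL9 by -0.33 in prednisolone and by 0.11 in control animals (interaction -0.44, SE 0.10, adjusted p = 0.00354). In these 2 of the 20 genes no prednisolone animal's change overlapped that of a control animal, as in 6.03% of all genes. MRPS18B changed by -0.55 in prednisolone and by -0.05 in control animals (interaction -0.50, SE 0.141, adjusted p = 0.0141). MRPS36 had the third largest positive interaction, 0.33, and did not pass (SE 0.196, adjusted p = 0.25).

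The interaction calls depended on the fit. With the animal as a replicate block 7 of the 20 passed, where 26.4% of all genes did, and MRPS14 (adjusted p = 0.043) and MRPS9 (adjusted p = 0.0359) were added. Without animals 28 and 32 the calls of MRPS17 (0.68, adjusted p = 0.0501) and MRPS18B (-0.49, adjusted p = 0.0526) ended, which left 3.

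By structure, 7 of the 14 genes with a bacterial counterpart passed at T2 (3 higher, 4 lower), and 2 of the 6 mitochondria-specific ones (both lower, MRPL43 and MRPS26), beside 18.6% of all genes. Over time in prednisolone animals the counts were 9 of 14 (4 higher, 5 lower) and 3 of 6 (2 higher, 1 lower), beside 38% of all genes. MRPS36, counted by its symbol, is among the 6 and among the 2 higher. The classes were not tested against each other. Averaged over the 20 genes, each centred on its own mean, the arrays spanned -0.10 to 0.11 in prednisolone and -0.04 to 0.20 in control animals at T2, and -0.10 to 0.07 in prednisolone and -0.09 to 0.03 in control animals at T1. The groups thus overlapped in the mean of the 20 genes, in which rises and falls cancel. Median differences of the large and small subunit were 0.052 and -0.02 at T1 and -0.055 and -0.23 in the interaction. Over time they were 0.023 and -0.203 in prednisolone and 0.075 and 0.088 in control animals. Without the block and with the spots chosen by brightness, 7 of the 20 genes passed in no comparison. These were MRPL11, MRPL16, MRPL30 and MRPL49, and also MRPL2, MRPL12 and MRPL57, which passed over time in prednisolone animals with the block; averaging all spots passed MRPL2 at T2 and MRPL57 in 3 comparisons.

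The proteins of the cytosolic ribosome, which share the role but not the compartment, gave other counts. Of 42 such genes tested none passed at T2 in limma, where 18.6% of all genes did. Before adjustment 1 of the 42 had p under 0.05, where 719 of 2403 genes did, and their median difference was 0.055. Over time in prednisolone animals 5 of 42 passed, 3 higher and 2 lower, beside 38% of all genes. At T1 8 of 42 had p under 0.05 before adjustment, beside 21.7% of all genes. RPL27 alone passed there (0.92, SE 0.156, adjusted p = 0.0297), beside 0.333% of all genes. It alone also passed in the interaction (-0.96, SE 0.198, adjusted p = 0.00148), beside 18.1% of all genes. The median size of a difference regardless of sign at T2 was 0.056 for these genes, against 0.219 for the 20 mitochondrial ones. The difference between the groups of genes was not tested.

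Few partners of the mitochondrial ribosome were measured under a name. Of 30 listed genes of ribosome assembly and ribosomal RNA modification 5 were tested, and MTG2, a GTPase that acts late in assembly of the large subunit, rose. It had 9.60, 9.88 and 9.96 in prednisolone animals at T2, against 8.82, 9.04 and 9.31 in control animals. The groups did not overlap, as in 4.08% of all genes. The rise at T2 was 0.76 (SE 0.0839, adjusted p = 8.83e-05). At T1 MTG2 had 8.35, 8.91 and 9.28 in prednisolone animals, so it rose by 1.02 over time in them (SE 0.114, adjusted p = 9.43e-06), in 8 of 8 animals, and its interaction was 0.88 (SE 0.159, adjusted p = 5.84e-04). The median T2 difference of these 5 genes was 0.126. C1QBP, a matrix protein that binds mitochondrial RNA and ribosomes, rose over time in prednisolone animals by 0.29 (SE 0.0898, adjusted p = 0.0162). Of the 5 genes 1 passed at T2, beside 18.6% of all genes, and 1 in the interaction, beside 18.1%. Over time in prednisolone animals 2 of the 5 passed, beside 38% of all genes. These counts lay near the background.

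Of 17 listed genes of mitochondrial DNA and transcription 3 were tested. In prednisolone animals all 3 fell over time. Of all genes 38% passed in this comparison, made up of 21.9% higher and 16.1% lower at T2. TFB2M, a factor that mitochondrial RNA polymerase needs to open promoters, fell by 0.46 (SE 0.125, adjusted p = 0.00806), in 7 of 8 animals. At T2 it had 9.31, 9.38 and 9.85 in prednisolone animals, against 9.75, 10.04 and 10.26 in control animals. The T2 difference was -0.55 (SE 0.0985, adjusted p = 0.00169), with all 8 prednisolone animals below the control mean. TFAM, which packages mitochondrial DNA and activates its promoters, fell over time by 0.43 (SE 0.113, adjusted p = 0.00716), and HSD17B10, a dehydrogenase that is also a subunit of mitochondrial RNase P, by 0.28 (SE 0.0836, adjusted p = 0.0132). In control animals TFB2M changed by -0.13, HSD17B10 by -0.10 and TFAM by 0.06, none passing. No interaction passed in limma for TFB2M (-0.33, adjusted p = 0.168), TFAM (-0.49, adjusted p = 0.287) or HSD17B10 (-0.18, adjusted p = 0.319). Of 17 translation factors MTIF2, TUFM and TSFM were tested, and of 23 mitochondrial aminoacyl-tRNA synthetases SARS2, and none of these 4 passed in any comparison. None of the 7 listed ribosomal proteins with other symbols and of the 9 listed regulators was among the genes tested.

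**Figure D4:**
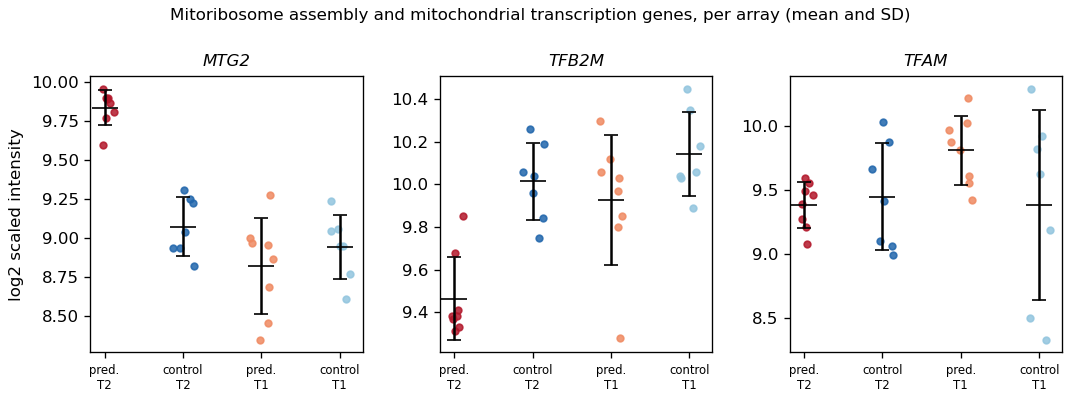
Levels per array of MTG2, TFB2M and TFAM in log2 scaled intensity, for prednisolone and control animals at T2 and then at T1; points are arrays, bars the mean and SD (n = 8 prednisolone, n = 7 control). MTG2 is highest and TFB2M lowest in prednisolone animals at T2, while the control animals vary widely in TFAM.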

How the data were processed

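The authors deposited linear intensities, positive numbers from one-colour arrays read at 2 scanner sensitivities that Feature Extraction 9.5 merged, detrended and background-subtracted, per the series text. R 2.11.1 is named in the submitters' processing notes. How arrays were scaled to each other and why 17.2% of cells are null is not given in the sources used here.

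Arrays were set to a common 75th percentile, taken over 23055 features measured on every array (largest shift 0.0495 log2), raised to a floor of 2.52 (percentile 1) and logged. Features within 0.25 log2 units of a gene's brightest were averaged. Genes in the lowest 25% by mean, or measured on under 4 arrays in any group, were dropped, which kept 2403. Symbols were updated through accessions for 5432 of 6954 named features. Differences were fitted across all genes with limma 3.58.1 in R 4.3.3 (lmFit, eBayes, two-sided, Benjamini-Hochberg over all genes, threshold 0.05), each comparison on its own groups and the interaction on all 30 arrays, and the fit was tested on simulated data. The arrays of an animal correlated in their deviations from group means at 0.199 to 0.663 (median 0.418), and each of the 15 had its highest correlation with itself at the other time, so a blocked fit by animal was an alternative. Other alternatives changed the scaling, probe rule, filter and floor, or left out animals 28 and 32.

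The members and lists were chosen with earlier results of these data known, and the list of cytosolic ribosomal genes was made by symbol after the values were seen. Genes were named where they passed, with the 3 largest rises and falls of each comparison. The planned search for promoter motifs was not run, and no sequences were used here.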

Additional observations from a re-analysis of the deposited data

Results flagged for a closer look

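In 5 genes the change from T1 to T2 differed between prednisolone and control animals by the test of the interaction, 25% of the 20 tested, where 18.1% of all genes did. The interaction was 0.67 for MRPS17 and 0.58 for MRPL13, and it was -0.63 for MRPS26, -0.50 for MRPS18B and -0.44 for MRPL9. Without animals 28 and 32 MRPS17 (adjusted p = 0.0501) and MRPS18B (adjusted p = 0.0526) no longer passed in limma. For each of the 5 genes all 8 prednisolone animals lay on the same side of the mean control change, which selection by this test favours. The same held for MRPL11, MRPL57, MRPS14 and MRPS9, which did not pass.

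In 8 of the 80 combinations of gene and group 1 array lay apart from the rest of its group by Dixon's criterion, where chance gives about 1 in 20. The lowest array was apart for MRPS17 in prednisolone animals at T2 (9.91, animal 31, the next at 10.32), for MRPL20 and MRPS26 in prednisolone animals at T1 (12.27, animal 29, and 8.89, animal 25), for MRPL16 and MRPS34 in control animals at T2 (12.66, animal 23, and 11.55, animal 22) and for MRPL13 in control animals at T1 (10.83, animal 17). The highest array was apart for MRPL57 in prednisolone animals at T2 (13.26, animal 32, the next at 12.72) and for MRPL43 in control animals at T1 (10.76, animal 24).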

How the results depend on the processing

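The 41 results of named genes were those that passed or were among the 3 largest rises or falls of a comparison. They were recomputed with other scalings, probe rules, filters, floors and fits, and 35 of them without animals 28 and 32. Of 357 values 346 kept their direction and side of the threshold. The other values were 9 that no longer passed and 2 that newly passed with the animal as a block, and none changed sign. Results outside the 41 also newly passed in some settings. At T2 these included MRPL2 and MRPS34 with quantile normalization, MRPL20 with the brightest spot, and MRPL2 and MRPL57 with all spots averaged. Without animals 28 and 32 the interaction count fell to 3 genes, with 9.32% of all genes passing, and the median T2 treatment difference of the 20 genes moved to -0.126. All other counts and medians of the 5 comparisons stayed within 1.5 times, or within the 0.066 spread of the genes' median between arrays. With the animal as a replicate block 9 genes passed at T2 (15.5% of all genes), 15 over time in prednisolone animals (42.6%), 7 in the interaction (26.4%) and none at T1 (9.61%) or in control animals (0.125%). The causes of the lost calls were not tested. No slide or hybridisation batch is named in the labels, so none was modelled.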

Other observations

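MRPL57, a mitochondria-specific protein of the large subunit, had 2 pairs of spots under 1 accession that behaved differently. The dimmer pair averaged 11.24 ± 0.22 in prednisolone (SD, n = 8) and 11.81 ± 0.31 in control animals (SD, n = 7) at T2, and 11.93 ± 0.31 in prednisolone (SD, n = 8) and 11.80 ± 0.34 in control animals (SD, n = 7) at T1. The brighter pair, used in the comparisons, averaged 12.69 ± 0.25 in prednisolone and 12.74 ± 0.17 in control animals at T2. Within prednisolone animals the dimmer pair changed by a median of -0.75 between T1 and T2 and the brighter pair by a median of -0.21. With all 4 spots averaged, MRPL57 passed at T2 (-0.31, SE 0.0831, limma adjusted p = 0.0176), over time in prednisolone animals (-0.46, SE 0.077, adjusted p = 2.48e-04) and in the interaction (-0.41, SE 0.113, adjusted p = 0.0138).

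MRPS7, the counterpart of bacterial S7, lay below the filter at percentile 24.3 of named genes, with 19 missing spot values. Its mean was 3.59 ± 0.45 in prednisolone (SD, n = 8) and 3.96 ± 0.74 in control animals (SD, n = 7) at T2. Tested without the filter it differed by -0.36 at T2 (SE 0.294, adjusted p = 0.489).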
